A study of Homo sapiens with 6 samples.

Results

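Expression of the enzymes that make asparagine, serine, cysteine and proline was examined in SUM159 cells with and without decitabine. SUM159 is an established line from a human breast carcinoma of the triple-negative type. The set named 9 enzymes: ASNS, CTH, CBS, PHGDH, PSAT1, PSPH, PYCR1, GPT2 and GOT1. An array feature carrying the enzyme's symbol as its single gene name was found for 7 of the 9, out of 14884 named genes in all, and each of the 7 had 1 such feature. GPT2 and GOT1, the mitochondrial alanine and cytosolic aspartate aminotransferases, lacked a named feature and are left out. The treated group was 3 samples of cells kept for 72 h in 1 µM decitabine with the medium renewed daily, and the untreated group was 3 samples kept for 72 h in control medium. Whether the solvent of the drug was added to the controls is not given in the labels, and neither is whether replicates were grown as separate cultures, so p-values cover the variation among these samples alone and that variation may be technical. All samples came from 1 cell line. Total RNA was hybridised to single-colour arrays, 1 per sample, and the values are expression levels read as log2. The log base is not stated in the sources used here, and every fold below rests on that reading.

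Most of these enzymes build non-essential amino acids from intermediates of glycolysis and the citric acid cycle. PHGDH, PSAT1 and PSPH act in series to turn the glycolytic intermediate 3-phosphoglycerate into serine, CBS and CTH move sulfur from homocysteine onto serine to give cysteine, PYCR1 completes proline, and ASNS converts aspartate to asparagine. Several of their genes are known targets of ATF4, a transcription factor whose translation increases when the kinase GCN2 senses uncharged tRNA or when other stress kinases phosphorylate eIF2α. Decitabine is a deoxycytidine analogue that is incorporated into DNA and traps DNA methyltransferases there, so that methylation is lost as cells divide.

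The medians over all features were 3.03 and 2.98 on the replicate 1 arrays, untreated and decitabine, and 2.29 to 2.42 on the other 4 arrays. Of the markers of the line, VIM lay at 8.66 to 9.68, CD44 at 6.14 to 7.27 and FN1 at 10.39 to 11.14, whereas the hormone receptors ESR1 and PGR lay at 1.50 to 2.43 and 1.54 to 2.95. Of the others listed as high in such a line, EGFR lay at 7.01 to 8.30, KRT18 at 7.57 to 7.97 and ZEB1 at 5.53 to 6.67. KRT14 lay at only 2.06 to 3.22 and untreated KRT5 at 2.35 to 2.97. Of the others listed as low, GATA3 lay at 5.32 to 5.79 and EPCAM at 2.55 to 4.37. Of the 12 line markers measured, of 15 listed, the basal keratin KRT5 rose by 1.75 (SE 0.37, limma adjusted p = 0.0497) and the growth factor receptor EGFR fell by 1.15 on the log2 scale (SE 0.19, limma adjusted p = 0.0195). KRT5 lost the call when replicate 2 or 3 of either group was left out (adjusted p of 0.13 to 0.197, at changes of 1.37 to 1.80), as did EGFR, which also lost it without decitabine replicate 1 (0.0624 to 0.12, at changes of -1.19 to -1.11). With median centring the adjusted p was 0.0511 for KRT5 and 0.103 for EGFR. With the replicate number as a block KRT5 (limma adjusted p = 0.0295) and EGFR (0.00504) passed, and EPCAM (1.10, 0.00829) and ZEB1 (-0.51, 0.0438) passed as well. Of all genes 7.79% rose and 5.37% fell with the block, against 2.01% and 1.02% without it. The part of these markers in the results was not tested. ERBB2, CDH1 and CDH2 had no named feature. Markers of blood, endothelial, stromal and liver cells were measured for 7 of 15 genes, lay at 1.04 to 3.35, and none of the 7 passed the test between the groups; with the replicate number as a block CD14 passed, at a change of 0.72 (limma adjusted p = 0.0247). The summed level of the 7 was 12.99 to 17.98 on untreated and 15.08 to 16.70 on decitabine arrays, and its part in the results was not tested. In bulk RNA such as this, fewer cells with a transcript and less transcript per cell cannot be told apart.

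The 7 measured enzymes were each lower after decitabine in all 3 pairs of arrays with the same replicate number, a pattern held by 21.8% of all genes. The members were chosen by their known differences between decitabine and untreated on the same 6 arrays, so their differences are given as a description and support nothing further. For all 7 the decitabine values lay below every untreated value, as they did for 8.74% of all genes. The median of the 7 changes, decitabine minus untreated, was -1.88 on the log2 scale (-1.73, -1.95 and -1.95 in pairs 1, 2 and 3), against -0.02 over the 14884 genes. The change was at least 2-fold for 6 of the 7, a size reached downward by 1.58% of all genes. In the limma fit over all genes 4 of the 7 (ASNS, CTH, PHGDH and PSAT1) had an adjusted p under 0.05 with a lower level, against 1.02% of all genes. With the replicate number as a block all 7 did, against 5.37% of all genes. In the fit without the block, PHGDH lost its call when untreated replicate 2 or decitabine replicate 2 was left out, which left 3 of the 7. In those fits 33 and 35 of the 14884 genes were called lower, and PHGDH changed by -2.34 and -2.33.

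**Figure D1:**
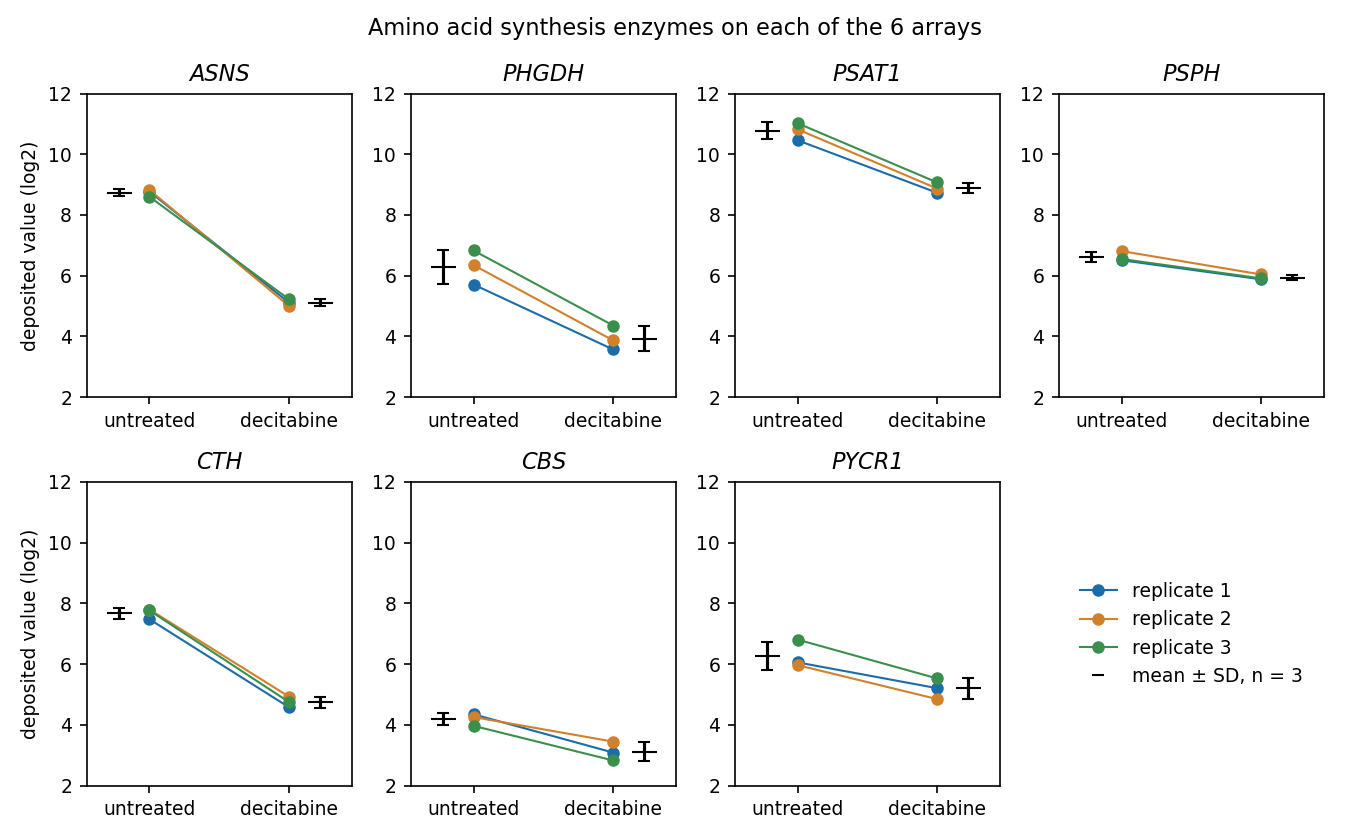
Deposited log2 expression (vertical axis, the same range in each panel) of the 7 enzymes in untreated and decitabine samples; coloured lines join arrays of the same replicate number and black bars give the mean and SD of 3 arrays. Every line slopes downward, from a difference of -3.82 in an ASNS pair to -0.63 in a PSPH pair.

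ASNS, the glutamine-dependent asparagine synthetase (Entrez Gene 440), had the lowest change of all 14884 genes. Its untreated arrays read 8.77, 8.82 and 8.60 and its decitabine arrays 5.11, 5.00 and 5.22 in replicates 1, 2 and 3. The groups were parted by 3.38, and the arrays within a group lay within 0.22 of each other. The means were 8.73 ± 0.12 and 5.11 ± 0.11 (SD, n = 3 per group), a change of -3.62 (SE 0.19), or 12.3-fold. Pair differences were -3.66, -3.82 and -3.38.

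The ASNS promoter is known for a pair of elements that raise its transcription when amino acids are short, a C/EBP-ATF response element, where ATF4 binds, and a further element downstream of it. RefSeq (GRCh38.p14) promoter windows of 300 bases, from 250 before to 50 after an annotated start, were searched on both strands for the C/EBP-ATF response element written TGATGNAA, for its TGATG core, which every TGATGNAA match also contains, and for the CRE palindrome TGACGTCA. ASNS has 2 annotated windows, and the window at chr7:97872359-97872658, minus strand, is shown because it holds a full match. Capitals mark TGATGNAA and TGATG matches, the latter also where read on the opposite strand as CATCA.
ASNS: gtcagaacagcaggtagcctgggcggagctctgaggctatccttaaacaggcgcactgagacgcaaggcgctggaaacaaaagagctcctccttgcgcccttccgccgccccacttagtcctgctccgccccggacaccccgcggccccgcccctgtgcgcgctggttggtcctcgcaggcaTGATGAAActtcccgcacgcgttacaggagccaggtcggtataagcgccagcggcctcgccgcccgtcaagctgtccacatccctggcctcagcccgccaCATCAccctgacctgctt
The full match began 68 bases before the annotated start. Read with the next bases, the element was followed after 11 bases by the letters GTTACA, as in this stretch at chr7:97872451-97872476, in which capitals mark both elements.
ASNS elements: TGATGAAACttcccgcacgcGTTACA
This arrangement, searched for after the ASNS window had been read, was held by 1 of the 35116 windows in the table, that of ASNS. The letters and spacing searched for were those of that window, so a match there was fixed in advance. The count therefore does not show how unusual the arrangement is. The other ASNS window, at chr7:97872116-97872415, held 2 TGATG cores and no full match. TGATGNAA alone was held by 3.62% of windows, TGATG by 32.9% and TGACGTCA by 1.85%. A match describes the letters in a window and is not a measured binding site, and no DNA methylation or factor binding was measured here.

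The enzymes of serine synthesis were lower to unequal extents, most at the entry of the pathway and least at its last step; the differences between enzymes were not tested. PHGDH (26227), 3-phosphoglycerate dehydrogenase, which commits carbon to serine, read 5.71, 6.35 and 6.83 untreated and 3.57, 3.87 and 4.36 with decitabine in replicates 1, 2 and 3. Its arrays differed more within a group than those of the other enzymes, with replicate 1 lowest and replicate 3 highest in both groups, yet the groups did not overlap. The means were 6.30 ± 0.56 and 3.93 ± 0.40 (SD, n = 3 per group), a change of -2.36 (SE 0.33), or 5.15-fold. Its pair differences of -2.14, -2.48 and -2.47 varied less than its levels, and the SE was 0.13 with the replicate block.

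PSAT1 (29968), the aminotransferase of the next step, read 10.46, 10.82 and 11.02 in untreated replicates 1, 2 and 3 and 8.73, 8.87 and 9.07 with decitabine. Replicate 1 was again the lowest and replicate 3 the highest in both groups, and the gap between the groups was 1.39. The change was -1.88 (SE 0.23), or 3.67-fold, with pair differences of -1.73, -1.95 and -1.95. PSPH (5723), the phosphatase that releases serine, read 6.51, 6.81 and 6.55 untreated and 5.88, 6.04 and 5.91 with decitabine. Its groups were close, with a gap of 0.47, but did not overlap. The change of -0.68 (SE 0.20), or 1.60-fold, was the smallest of the 7, and pair differences were -0.63, -0.77 and -0.64. PSPH has an annotated pseudogene copy, PSPHP1, and whether that transcript adds to the feature's signal was not tested.

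Promoter windows were at hand for PHGDH and PSAT1, which are shown because both enzymes of the pathway were lower by over 2-fold and neither window held a full TGATGNAA match. The PHGDH window lies at chr1:119711684-119711983, plus strand, and the PSAT1 window at chr9:78296875-78297174, plus strand, with capitals marking the TGATG core read on the opposite strand.
PHGDH: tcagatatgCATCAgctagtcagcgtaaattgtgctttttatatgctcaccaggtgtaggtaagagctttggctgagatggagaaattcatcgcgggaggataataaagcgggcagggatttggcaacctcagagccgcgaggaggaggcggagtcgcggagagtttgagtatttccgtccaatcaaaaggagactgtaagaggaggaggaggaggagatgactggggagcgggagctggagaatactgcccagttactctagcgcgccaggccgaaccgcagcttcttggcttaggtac
PSAT1: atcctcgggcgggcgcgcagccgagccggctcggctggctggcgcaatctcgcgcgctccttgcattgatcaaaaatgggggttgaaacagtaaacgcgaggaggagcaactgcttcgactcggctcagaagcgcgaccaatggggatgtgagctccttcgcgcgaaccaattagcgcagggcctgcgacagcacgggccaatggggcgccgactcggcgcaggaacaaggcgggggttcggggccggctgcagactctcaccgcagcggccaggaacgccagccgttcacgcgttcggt
PHGDH held 1 core, beginning 241 bases before the start, and PSAT1 held none. Elements outside these 300 bases would not be seen in such a search.

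In the route from homocysteine to cysteine, the enzyme that releases cysteine was lower by more than the enzyme before it. The difference between these enzymes was not tested, and the lower level of CBS leaves less room for a fall. CTH (1491), cystathionine gamma-lyase, read 7.48, 7.80 and 7.77 untreated and 4.58, 4.93 and 4.75 with decitabine. Every array of a group lay within 0.35 of the others, against a gap of 2.55 between the groups. The means were 7.68 ± 0.18 and 4.75 ± 0.18 (SD, n = 3 per group), and the change was -2.93 (SE 0.21), or 7.62-fold, the fourth lowest of all genes. Pair differences were -2.90, -2.87 and -3.02. The CTH window at chr1:70411018-70411317, plus strand, is shown as that of the enzyme with the next largest change after ASNS, and it held neither TGATGNAA nor TGATG, so it has no capitals.
CTH: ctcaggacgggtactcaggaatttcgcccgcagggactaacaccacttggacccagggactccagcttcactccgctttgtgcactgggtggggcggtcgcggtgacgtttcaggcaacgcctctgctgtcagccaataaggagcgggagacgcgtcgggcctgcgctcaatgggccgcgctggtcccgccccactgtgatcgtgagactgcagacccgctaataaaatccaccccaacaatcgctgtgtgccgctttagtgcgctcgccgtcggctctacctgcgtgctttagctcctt
CBS (875), cystathionine beta-synthase, which condenses serine with homocysteine, read 4.35, 4.26 and 3.97 untreated and 3.09, 3.45 and 2.83 with decitabine. The highest decitabine array, replicate 2, lay 0.52 below the lowest untreated array, replicate 3. The change was -1.07 (SE 0.24), or 2.10-fold, with pair differences of -1.26, -0.81 and -1.14. The decitabine arrays of CBS were 2.83 to 3.45, where array medians over all features were 2.37 to 2.98, and no measure of background was used. A near-identical copy, CBSL, has been annotated in some genome builds and is listed as a synonym of CBS in the RefSeq table, so copies cannot be parted here. None of the 3 CBS windows held a TGATG core.

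PYCR1 (5831), the mitochondrial reductase of the last step of proline synthesis, read 6.06, 5.97 and 6.81 untreated and 5.21, 4.85 and 5.53 with decitabine. Replicate 3 was the highest in both groups, and its decitabine array lay 0.44 below the lowest untreated array. The change was -1.08 (SE 0.30, and 0.14 with the replicate block), or 2.12-fold, with pair differences of -0.85, -1.12 and -1.28.

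**Figure D2:**
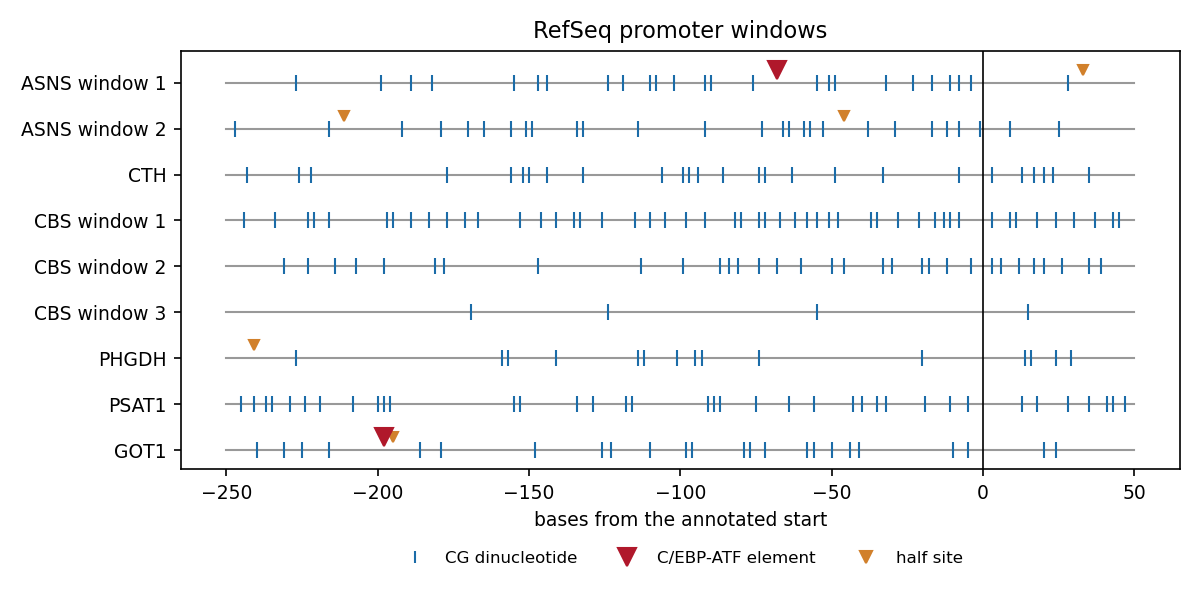
RefSeq promoter windows (GRCh38.p14) of the 6 enzymes of the set in the promoter table; the horizontal axis is the distance in bases from the annotated start, blue ticks are CG dinucleotides, large red triangles are matches of the C/EBP-ATF response element and small orange triangles are matches of its core. ASNS window 1 has a full match at -68 and GOT1 has one at -198.

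CG dinucleotides, the sites of DNA methylation, were counted in the same windows. The median over the 35116 windows was 14, with quartiles at 4 and 28. Both ASNS windows held 25 and 27, CTH 26, PHGDH 15 and PSAT1 37, and the CBS windows held 50, 32 and 4. Every window of a measured enzyme but the third of CBS held more CG dinucleotides than the median window, but those of PHGDH, CTH and ASNS lay within the quartiles. Windows of PSPH, PYCR1 and GPT2 were not used here.

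**Figure D3:**
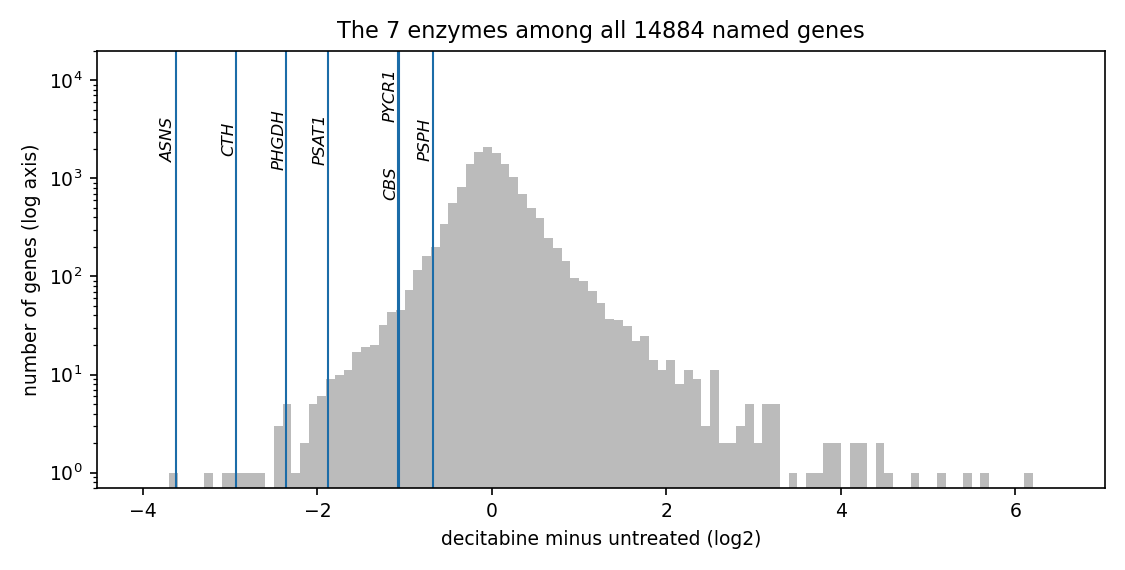
Histogram of the change after decitabine, in log2 units (horizontal axis), over the 14884 named genes, with the number of genes per bin of the axis on a log scale; blue lines mark the 7 enzymes. ASNS stands at the left end at -3.62, and PSPH at -0.68 lies nearest to 0.

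Genes outside the set had profiles closer to that of ASNS than any of its enzymes. By Pearson correlation over the 6 arrays the 5 nearest were CSTA (0.9986), a protease inhibitor, XBP1 (0.9983), a transcription factor of the unfolded protein response, GALNT5 (0.9972), a glycosyltransferase, ERLIN1 (0.9967), an endoplasmic reticulum membrane protein, and GATAD2B (0.9958), a subunit of the NuRD complex. Their changes were smaller, from -1.76 for CSTA to -0.70 for GATAD2B. CTH had a correlation of 0.9922 with ASNS, rank 16 of 14883 genes, PSAT1 0.9768, rank 69, PSPH 0.9553, rank 183, and PHGDH 0.944, rank 241. CBS (0.9235, rank 350) and PYCR1 (0.8478, rank 732) were less alike. These values mainly restate the step between the groups, since all genes share the same 6 arrays, and they are given as a description.

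Related genes were taken from 7 lists drawn by role, with 145 genes, of which 69 outside the set were measured. Of the 69, 2 rose (background 2.01%), 4 fell (1.02%) and 63 did not pass, and the median change was -0.09. With the replicate block 9 rose (background 7.79%) and 9 fell (5.37%). The 31 listed transporters of amino acids at the plasma membrane lacked a named feature and were not analysed here.

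Of 14 measured enzymes that use serine or handle glycine and one-carbon units, 2 rose (2.01% of all genes), 1 fell (1.02% of all genes) and 11 did not pass, with a median change of -0.17. With the replicate block 3 rose (7.79% of all genes) and 2 fell (5.37% of all genes). GLDC, the decarboxylase of the glycine cleavage system, read 3.13, 3.15 and 2.75 untreated and 5.08, 5.22 and 5.20 with decitabine. Its untreated levels lay near the medians over all features of those arrays, 3.03, 2.42 and 2.29 in replicates 1, 2 and 3. GLDC rose by 2.16 (SE 0.21, limma adjusted p = 0.00233), and it kept its call under all 14 alternatives, with adjusted p of 1.92e-04 to 0.0191. MTHFD1L, the mitochondrial synthetase that releases formate, read 6.88, 7.02 and 6.97 untreated and 5.19, 5.58 and 5.11 with decitabine. It fell by 1.66 on the log2 scale (SE 0.21, limma adjusted p = 0.00668), also under all 14 alternatives, with adjusted p of 5.20e-05 to 0.0481. TYMS, thymidylate synthase, which consumes a one-carbon unit, rose by 1.59 (SE 0.30, limma adjusted p = 0.0335, and 0.02 with the block). In the fit with no block its adjusted p was 0.0613 to 0.15 without decitabine replicate 1, 2 or 3 or untreated replicate 2 or 3, with changes of 1.37 to 1.69.

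SHMT2, the mitochondrial hydroxymethyltransferase that splits serine into glycine and a one-carbon unit, read 5.46 to 6.01 untreated and 4.09 to 4.91 with decitabine, with no overlap. Its change was -1.29 (SE 0.28) with a limma adjusted p of 0.0541, and 0.00399 with the replicate block. GCSH, the lipoyl carrier protein of the glycine cleavage system, read 3.07, 3.35 and 2.03 untreated, where array medians over all features were 3.03, 2.42 and 2.29. It changed by 0.91 (SE 0.53, limma adjusted p = 0.565, and 0.0178 with the block). The other components, AMT at -0.44 and DLD at 0.09, did not pass with or without the block. MTHFD2 had no named feature.

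The MTHFD1L window also held the response element, at chr6:150866357-150866364, plus strand, in 3 of its 4 overlapping or alternative windows, where the letters are the same site. The GOT1 window held it at chr10:99430815-99430822, plus strand, opposite to the gene, and GOT1 itself was not measured. These stretches are shown beside that of ASNS, read in the direction of the element with 12 bases on each side and the element in capitals.
ASNS: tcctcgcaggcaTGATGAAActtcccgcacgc
MTHFD1L: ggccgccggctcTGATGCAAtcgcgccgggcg
GOT1: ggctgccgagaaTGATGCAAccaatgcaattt
The matches of MTHFD1L and GOT1 have the same 8 letters. No full match was present in the windows of GLDC, TYMS or ASS1. Counted by gene, over all windows of each, TGATGNAA was held by 4.46% of genes.

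**Figure D4:**
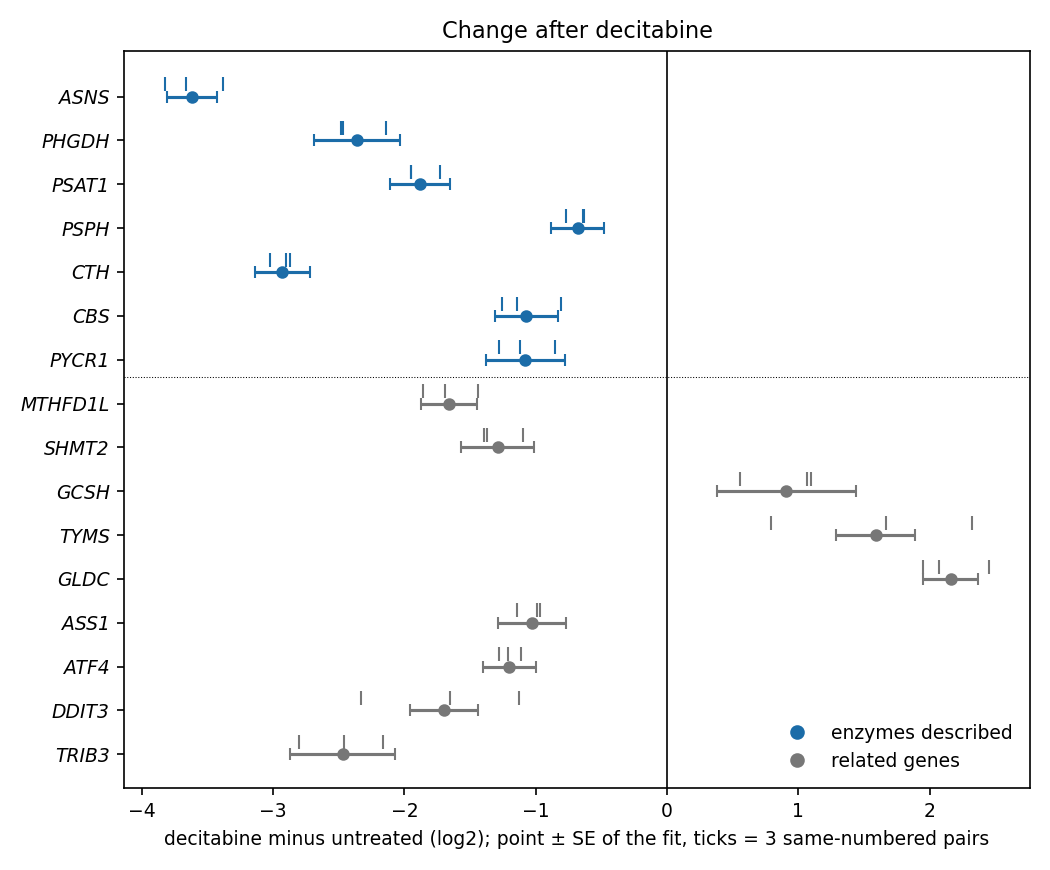
Change after decitabine (horizontal axis, log2 decitabine minus untreated) of the 7 enzymes, in blue above the dotted line, and of 9 related genes, in grey below it; points and bars are the fitted change and its SE, and the ticks above them are the 3 same-numbered pairs. Enzymes of the set lie between -3.62 and -0.68, and GLDC lies at 2.16.

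In the other metabolic lists no gene passed the test without the block. Among 10 measured genes of aspartate, glutamate and alanine metabolism the largest change was that of ASS1, argininosuccinate synthase, which also consumes aspartate, at -1.03 (SE 0.26, limma adjusted p = 0.0888, and 0.00628 with the block). GPT, the cytosolic alanine aminotransferase, changed by -0.02 (SE 0.44). Among 5 measured genes of proline and ornithine metabolism PYCR3, a cytosolic relative of PYCR1, had the largest change, 0.22 (SE 0.34, limma adjusted p = 0.974, and 0.415 with the block). GSS, glutathione synthetase, changed by -0.73 (SE 0.26, limma adjusted p = 0.237, and 0.0585 with the block), the largest change among 18 genes of the methionine cycle, cysteine use and glutathione. In that list BHMT2 and SQOR, 2 of the 18, rose with the block, as did 7.79% of all genes. BHMT2 changed by 0.58 (limma adjusted p = 0.422, and 0.0326 with the block) and SQOR by 0.63 (0.231, and 0.0271 with the block). Both were named after their values were seen. AADAT, the aminoadipate aminotransferase, had the largest change among 7 other aminotransferases, 0.89 (SE 0.24, limma adjusted p = 0.102, and 0.0128 with the block).

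Of 15 measured regulators of the amino acid response 3 fell (1.02% of all genes), none rose (2.01%) and 12 did not pass, while with the replicate block 6 fell (5.37%) and 3 rose (7.79%). ATF4 (8.24, 8.53 and 8.40 untreated, 7.13, 7.32 and 7.12 with decitabine) fell by 1.20 on the log2 scale (SE 0.20, limma adjusted p = 0.0187, and 0.00399 with the block). The call without the block was lost when decitabine replicate 1, 2 or 3 or untreated replicate 2 or 3 was left out (adjusted p of 0.062 to 0.115, at changes of -1.26 to -1.13). It was also lost when each array was centred on its median (0.0946). TRIB3, an ATF4-induced pseudokinase (6.21, 6.92 and 7.74 untreated, 4.05, 4.46 and 4.94 with decitabine), fell by 2.47 on the log2 scale (SE 0.40, limma adjusted p = 0.0186, and 0.0011 with the block). In the fit without the block, leaving out untreated or decitabine replicate 2 gave TRIB3 an adjusted p of 0.083 and 0.0814 at changes of -2.49 and -2.46. DDIT3, the transcription factor CHOP (4.19, 4.37 and 4.87 untreated, 3.06, 2.72 and 2.54 with decitabine), fell by 1.70 on the log2 scale (SE 0.26, limma adjusted p = 0.0134, and 0.00946 with the block). Its decitabine levels lay near the medians over all features of those arrays, 2.98, 2.40 and 2.37 in replicates 1, 2 and 3. Without untreated replicate 2 or decitabine replicate 2 or 3 the adjusted p for DDIT3 in the fit with no block was 0.0607 to 0.0719 at changes of -1.76 to -1.59. EIF2AK4, which encodes GCN2, changed by 0.18 (SE 0.21, limma adjusted p = 0.929, and 0.387 with the block). No TGATGNAA match was present in the windows of ATF4, TRIB3 or DDIT3. MYC, a transcription factor, changed by -0.86 (SE 0.45, limma adjusted p = 0.491), and its pair differences of -0.85, -0.88 and -0.86 gave 0.0094 with the block. ATF5, a relative of ATF4, read 4.31, 4.24 and 4.43 untreated and 6.07, 5.07 and 5.14 with decitabine, a change of 1.10 (SE 0.29, limma adjusted p = 0.104, and 0.0302 with the block). KEAP1, the adaptor that targets NRF2 for degradation, read 4.49, 4.70 and 4.94 untreated and 5.94, 5.72 and 5.55 with decitabine, a change of 1.03 (SE 0.22, limma adjusted p = 0.0504, and 0.0204 with the block). Both were higher on every decitabine array than on any untreated array, and both also passed with quantile normalization and with an intensity trend. The lower SHMT2 and ASS1 passed in those settings too. Neither ATF5 nor KEAP1 passed with median centring, with any single array left out or with both replicate 1 arrays left out. For KEAP1 the limma adjusted p was then 0.166, 0.0943 to 0.204 and 0.133. EIF2AK3, which encodes the stress kinase PERK, changed by 0.62 (SE 0.23, limma adjusted p = 0.265, and 0.0445 with the block). JDP2, a repressor of the AP-1 family, changed by -0.83 (limma adjusted p = 0.167, and 0.0369 with the block), and NFE2L2, which encodes NRF2, by -0.53 (0.358, and 0.042 with the block).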

How the data were processed

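Total RNA of 6 samples, 3 untreated and 3 with decitabine, was measured on arrays. The deposited log2 expression values came from the Transcriptome Analysis Console, which the authors used per the submitters' processing notes. The console's version, normalization and build were not given in the sources used here. A log2 scale was inferred from the range (0.17 to 12.89). Features were named by the platform annotation (16098 of 48226), symbols were updated by Entrez Gene ID, and the feature with the highest mean stood for each of 14884 genes. Groups were compared with limma 3.58.1 in R 4.3.3 (lmFit, eBayes, no covariate, two-sided, Benjamini-Hochberg adjustment over all genes, threshold 0.05), with no further normalization or filter. The fit was also run on simulated data with independent noise on each array. That setting lacks the correlation between same-numbered arrays given below, so it does not test the fit under the pairing seen here. The number of arrays limits the precision. Deviations from group means correlated at 0.682, 0.595 and 0.558 between same-numbered arrays, so the numbers in the titles were taken to pair the samples. The unblocked fit stayed the main one. Blocked values stand beside results whose call was changed by the block or by leaving out single arrays. The closing section names the alternatives; leaving out both replicate 1 arrays and quantile normalization with the block were added after the data were seen. The enzymes and lists were chosen with earlier results of these data known. Genes named were the enzymes, up to 6 genes past the threshold per list or else the gene of largest change, partners picked by role, and the 5 nearest to ASNS. Of the partners, GOT2, MTHFD2, ALDH18A1, CHAC1, GCLM, CEBPB and the transporters lacked a named feature. GCSH, AMT, DLD, EIF2AK4, MYC, CD14, the line markers shown and the genes named as passing only with the block were singled out after their values were seen. Promoter windows were from RefSeq, with 6 of the 9 enzymes present.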

Additional observations from a re-analysis of the deposited data

How the results depend on the processing

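The 98 values of the 7 enzymes recomputed under 14 alternatives (quantile normalization, median centring, the replicate block, quantile normalization with that block, each single array left out, both replicate 1 arrays left out, the dimmer 50% of genes left out, the mean of a gene's features, and an intensity trend) were all below 0, and 9 of them moved by more than the spread of the pair differences. Much of this was fixed in advance. The block, the intensity trend and leaving out dim genes cannot alter a fitted change, nor can the mean of features for enzymes with 1 feature. As the groups did not overlap for any of the 7, leaving out arrays cannot turn a sign. The median change of the enzymes ranged from -2.03 to -1.75 when single arrays were left out and from -1.95 to -1.86 under the other alternatives. The number of enzymes past the threshold, 4 in the main fit, was 7 with quantile normalization, with the replicate block, with both, or with the dimmer 50% of genes left out, and 6, all but CBS, with an intensity trend. It was 3 to 4 when single arrays were left out. Of all 14884 genes, 152 were called lower in the main fit, 387 with quantile normalization, 800 with the replicate block and 1046 with both. The genes called lower were 468 with an intensity trend, 432 of 7442 with the dimmer 50% left out, and 33 to 156 when single arrays were left out. The number of all genes called in either direction, 451 of 14884, became 938 with quantile normalization, 1959 with the replicate block and 2271 with both. It was 989, of only 7442 tested, with the dimmer 50% left out and 1162 with an intensity trend. It ranged from 130 to 477 when single arrays were left out. The 6 of 69 related genes called became 10, 18, 20, 11 and 11 under the same 5 alternatives, and 2 to 7 when single arrays were left out. With the dimmer 50% left out the 11 were of only 49 related genes tested. The cause of these differences was not tested. With 3 arrays per group and no measure of signal over background, the size of a change to or from a dim level holds only for the deposited values.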
